A study of Mus musculus with 3 samples.

Results

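Prss56 encodes serine protease 56, and it was followed as 1 gene of the 18545 genes measured across the cells of 3 mouse retina libraries. It was selected on values measured in these same Müller glia (MG), namely its low level in rd10 retinas and its higher level after TMB, so its levels and the genes of the cells that carry it are given below as a description. Single-cell RNA sequencing (scRNA-seq) had been run on dissociated retinas of C57BL/6J mice that were 8 weeks old and reared in the dark. The WT library came from wild-type females and males on base chow, the rd10-vehicle library from rd10 females on the same vehicle chow, and the rd10-TMB library from rd10 females whose chow held tamsulosin, metoprolol and bromocriptine. The rd10 line carries a point mutation in Pde6b, the gene of a rod phosphodiesterase subunit, and its rods and then its cones degenerate. Each group was 1 library, which per the labels pooled 1 retina from each of 4 mice, although the text of the study gives fewer rd10 animals. There was therefore no replicate, no test between groups and no p-value, and each interval below is a 95% interval of counting error in these libraries. Sex cannot be told apart from genotype where WT is set against rd10, except in the WT cells sorted by sex-linked transcripts below.

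Prss56 is a secreted protease of the trypsin type. In the eye it is known as a product of MG, the glia that span the retina and supply its neurons. Inherited PRSS56 variants are tied to very small, far-sighted eyes, and common variants near the gene to myopia, so it is grouped with the genes that set the axial length of the eye. MG of a degenerating retina take on a reactive state, marked by the intermediate filament gene Gfap and by Lcn2, a secreted iron-siderophore binder of the acute phase.

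In the mm10 genome (GRCm38) Prss56 lies on the plus strand of chromosome 1, at chr1:87183102-87188405 in RefSeq and chr1:87183313-87188405 in GENCODE M21, which gives it 1 transcript of 13 exons. The promoter window used, from a table of RefSeq, holds 250 bases before and 50 after a start at 87183314, next to the GENCODE start and downstream of the RefSeq gene start, so both stretches below lie inside the RefSeq gene and upstream of the GENCODE start. They are shown because they hold the only matches among the motifs searched there, written 5′ to 3′ on the plus strand with the match in capitals.
Prss56, chr1:87183273-87183302: ccctctgtcctcTATATAgctccagggcat
Prss56, chr1:87183152-87183181: aagggccgctTTCACAGAAgtggggagacg
The first holds TATATA, letters of the core promoter box bound by the general transcription machinery, present in 5.67% of 32851 promoter windows of the same length. The second holds TTCNNNGAA, the motif of STAT factors, present in 8.30%. Both strands were searched. TATAAA (in 13.6% of windows), TGANTCA (7.81%), TAATCC (7.06%), AGGTCA (16.3%), CACGTG (7.15%), GCGTGGGCG (0.612%) and GAANNTTC (7.86%) had no match in the Prss56 window. These matches describe letters, and no binding was measured here.

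Prss56 transcripts came almost entirely from MG. Of 407 unique molecular identifiers (UMIs, 1 for each captured transcript) in the 15242 cells, 405 (99.5%) lay in cluster 0 of the deposited clustering. The other 2 were 1 UMI in cluster 5 of WT and 1 UMI in cluster 11 of rd10-vehicle, and 18 of the 21 clusters had none. In cluster 1, which carried rod transcripts, 0 of 2482 cells had a UMI, which allows a share of up to 0.121% at the median depth of 1455 UMIs of these cells. Over all clusters but 0, 2 of 10472 cells (0.0191%) had a UMI, at a median depth of 3402 UMIs per cell against 8653 in MG. All 10 MG markers listed, among them Glul, Rlbp1 and Aqp4, were at least 9.95-fold higher in cluster 0 than in the rest of the cells, so the label MG held.

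In MG, Prss56 stood highest in WT, at 39.2 CPM (counts per 1000000 UMIs of the summed MG), against 3.11 CPM for rd10-vehicle and 12.3 CPM for rd10-TMB. These came from 130 UMIs in 530 WT cells (interval 32.7 to 46.5 CPM), 69 UMIs in 2492 rd10-vehicle cells (2.42 to 3.93 CPM) and 206 UMIs in 1748 rd10-TMB cells (10.7 to 14.1 CPM). The order was thus WT, rd10-TMB, rd10-vehicle, with no overlap of the intervals. From here on, 3 values in a row are given for WT, rd10-vehicle and rd10-TMB, in that sequence. Rd10-vehicle lay 12.6-fold below WT (log2 ratio -3.65, interval -4.10 to -3.22) and rd10-TMB 3.19-fold below WT (-1.68, -1.997 to -1.35). Rd10-TMB lay 3.95-fold above rd10-vehicle (1.97, 1.58 to 2.40). With each cell drawn down at random to 2000 UMIs, these log2 ratios were -4.82, -2.37 and 2.45, outside the intervals. The rd10-vehicle sum was then 7 UMIs. The intervals treat UMIs as independent, and since the transcript was clumped in few cells (below) they are narrower than the true counting spread. Among 10725 genes with at least 200 UMIs in MG, 1.38% were at least 2-fold lower in rd10-vehicle than in WT, 0.923% at least 2-fold lower in rd10-TMB than in WT, and 0.0559% (6 genes) at least 2-fold above rd10-vehicle in the rd10-TMB library. Prss56 ranked number 2, number 8 and number 1 in these directions, and these are the values it was selected on.

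**Figure D1:**
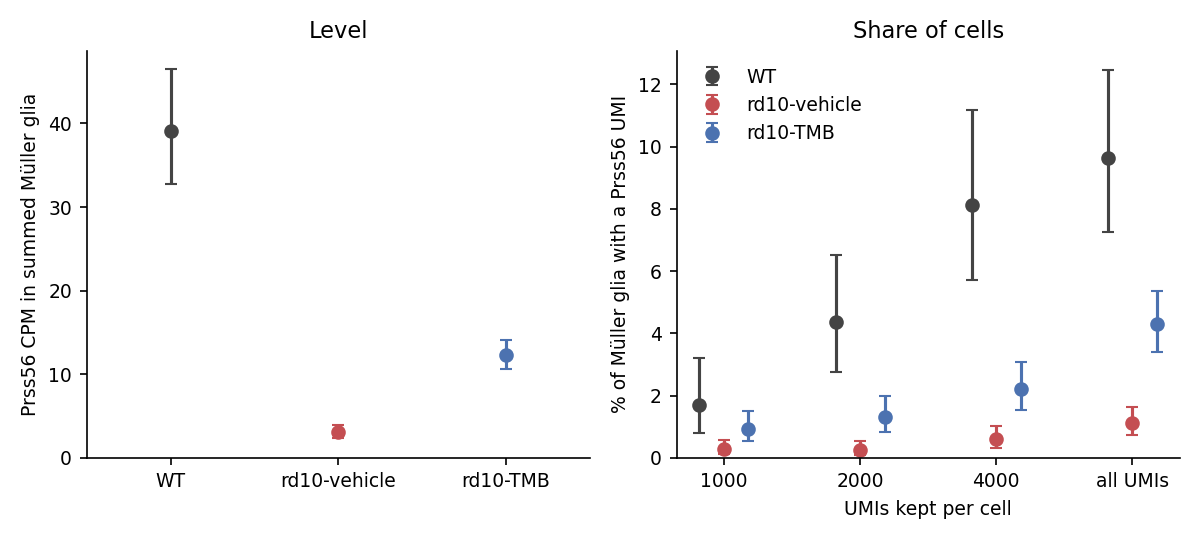
Left, Prss56 level (CPM of the summed MG) in the 3 libraries; right, percent of MG with at least 1 Prss56 UMI when each cell was drawn down to 1000, 2000 or 4000 UMIs or kept whole. Points are single pooled libraries and bars 95% counting intervals (exact Poisson, left; exact binomial, right); WT stands highest and rd10-vehicle lowest at each depth, and in the draw plotted the intervals overlap between neighbouring libraries at 1000 UMIs, which they did not in another draw (3.04%, 0.202% and 0.926%).

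Fewer MG carried the transcript in the rd10 libraries. With all UMIs kept, 51 of 530 WT cells (9.62%, interval 7.25 to 12.5), 28 of 2492 rd10-vehicle cells (1.12%, 0.748 to 1.62) and 75 of 1748 rd10-TMB cells (4.29%, 3.39 to 5.35) had a Prss56 UMI. MG were deeper in the rd10 libraries, so each cell was also thinned to 2000 UMIs, which left out 24, 65 and 79 shallower cells. The shares were then 4.35% of 506 WT cells (2.74 to 6.51), 0.247% of 2427 rd10-vehicle cells (0.0908 to 0.537) and 1.32% of 1669 rd10-TMB cells (0.828 to 1.99). The rank of the libraries was the same and the intervals did not overlap, but the rd10-vehicle value rested on 6 cells. Another random draw gave 5.93%, 0.412% and 1.44%, and the shares expected over all draws were 4.87%, 0.341% and 1.44%. Each share lay above the 0.0191% of the other clusters.

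In the cells that had the transcript, its amount was close with all UMIs kept and higher in WT at equal depth. With all UMIs, Prss56-positive MG held 2.55 (WT), 2.46 (rd10-vehicle) and 2.75 Prss56 UMIs per cell (rd10-TMB), with a median of 1 in each. After thinning to 2000 UMIs the means were 2.09, 1.17 and 1.32 UMIs, over 22, 6 and 22 cells, and after thinning to 4000 UMIs they were 2.15, 1.57 and 1.57. Since a positive cell has at least 1 UMI, these means lie near their lowest possible value. Most positive cells had a single UMI (29 of 51 in WT, 18 of 28 in rd10-vehicle, 50 of 75 in rd10-TMB), while the highest cell had 21, 11 and 22 UMIs. The 5 highest cells held 39.2% of the Prss56 UMIs of WT, 58.0% of those of rd10-vehicle and 40.3% of those of rd10-TMB. The MG marker Glul varied among these cells. In rd10-TMB the 3 highest had 22, 23 and 5 Glul UMIs among 19896, 10851 and 16036, and the next had 78 among 14350. In rd10-vehicle the second had 11 among 12640 and the highest 100 among 16769. The highest WT cell had 59 among 6286. With all UMIs kept, the variance of the Prss56 UMIs per MG was 6.51, 5.47 and 8.80 times their mean, where evenly spread counts would give about 1. At the measured means, an even spread would have put a UMI in 21.8%, 2.73% and 11.1% of MG, more than the shares seen. These values include the spread of depth between cells. At 2000 UMIs per cell the variance was 3.26, 1.28 and 1.54 times the mean. An even spread would there give 8.69%, 0.288% and 1.72%, so clumping was slight in the rd10 libraries at that depth.

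**Figure D2:**
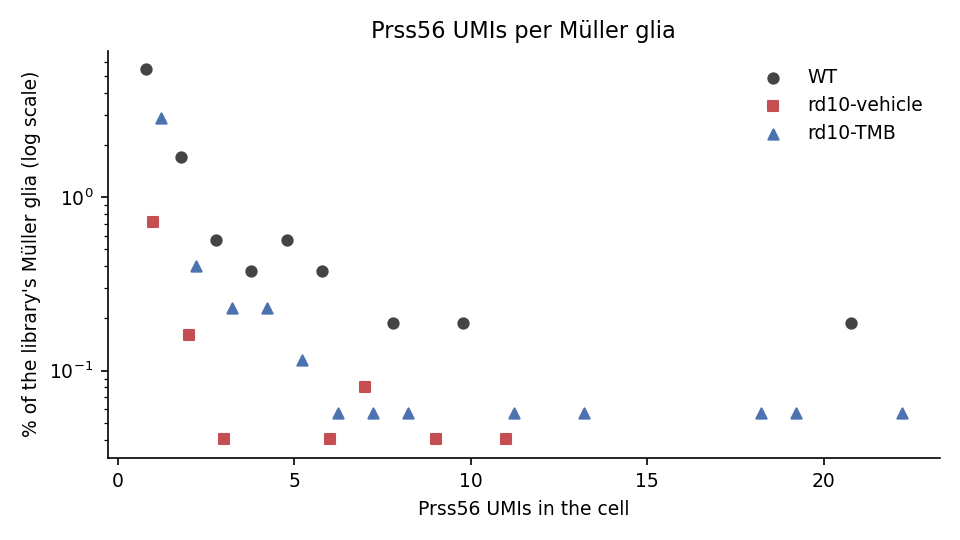
Percent of each library's MG (log axis) by the number of Prss56 UMIs in the cell, with cells at 0 left out and the markers of the libraries set slightly apart. Single-UMI cells are the commonest in each library, and tails reach 21 (WT), 11 (rd10-vehicle) and 22 UMIs (rd10-TMB).

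The few high cells weighed on the ratios in size and not in direction. Without the 5 highest cells of each library the log2 ratio was -4.17 for rd10-vehicle over WT, -1.72 for rd10-TMB over WT and 2.45 for rd10-TMB over rd10-vehicle. The WT library held both sexes. WT MG with Xist and no Y-linked UMI (245 cells) had 57.3 CPM of Prss56 (46.2 to 70.2) and those with a Y-linked UMI and no Xist (157 cells) 19.3 CPM (11.8 to 29.8). Their shares of positive cells were 12.7% (8.76 to 17.5) and 7.64% (4.01 to 13.0), with overlapping intervals, and 39 of the 93 UMIs of the first set lay in 3 cells. Against the first set alone, the log2 ratio was -4.20 for rd10-vehicle and -2.23 for rd10-TMB.

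Most other genes tied to eye growth differed less between the libraries than Prss56, and Slitrk6, Rasgrf1 and Gjd2, all of low count, were over 2-fold lower in both rd10 libraries. The list of genes tied to eye size and refraction had 21 members in the matrix, and the median log2 ratio of those with at least 200 MG UMIs was 0.03 for rd10-vehicle over WT, -0.02 for rd10-TMB over WT and -0.01 for rd10-TMB over rd10-vehicle. Tmem98, a membrane protein gene tied like Prss56 to small eyes, stood at 34.9, 35.8 and 35.0 CPM in WT, rd10-vehicle and rd10-TMB. Crb1, an apical polarity gene of MG, stood at 291 CPM in WT and 210 CPM in both rd10 libraries. Egr1, an immediate early transcription factor that responds to image blur, was lower for WT (1374 CPM) than for rd10-vehicle (2033 CPM) or rd10-TMB (2007 CPM). The collagen gene Col2a1 differed little (191, 177 and 178 CPM). Lower counts lay behind Slitrk6, a synaptic adhesion gene whose loss causes myopia, at 4.52, 0.541 and 1.13 CPM, and behind the gap junction gene Gjd2, at 5.72, 2.30 and 2.74 CPM. Rasgrf1, a nucleotide exchange factor gene, had 4.22, 0.676 and 1.19 CPM from 49 UMIs in all. The cone arrestin gene Arr3 went the other way, at 15.96, 28.6 and 39.6 CPM. Adipor1 had 61.1, 66.5 and 66.1 CPM, Zfp644 had 106, 109 and 103, Lamb2 had 34.0, 37.6 and 35.7, and Lrp2, an endocytic receptor gene, 23.2, 21.7 and 21.2. P3h2, a collagen prolyl hydroxylase gene, had 18.98, 13.4 and 13.8 CPM, while Best1, Bmp2, Igf1 and Rdh5 stayed below 5 CPM. Mfrp, which is mutated in small eyes and belongs to the retinal pigment epithelium, gave 2 UMIs in all MG.

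In a serine protease list of 29 genes taken by symbol, which holds Prss56 and the opposite-strand transcript Prss23os, the most abundant other members in MG moved far less than Prss56. Htra1, a secreted protease, had 337, 289 and 252 CPM. Prss23 had 75.9, 90.0 and 81.1 CPM and the mitochondrial protease Htra2 had 17.5, 16.9 and 18.1 CPM. Plat, the tissue plasminogen activator gene, went the other way in rd10 (31.9, 66.6 and 46.8 CPM). Tmprss5, a membrane-bound member outside the most abundant and named after its values were seen, had 10.8, 2.07 and 3.34 CPM, in the order of Prss56. Of the 6 genes listed beside Prss56 on the chromosome, 4 had no row in the matrix, the nearest (Chrnd) among them. Eif4e2, 25506 bases downstream and coding for a cap-binding protein, stood at 31.0, 35.5 and 36.2 CPM, and the acetylcholine receptor gene Chrng, with 1, 1 and 0 UMIs, was too rare to compare.

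The genes nearest to Prss56 in their pair of log2 ratios to WT were Ciart, Slco1c1, Ccl27a, Snhg11 and Ube2ql1, of the 10725. Ciart, a repressor of the circadian clock, had 150, 20.8 and 69.2 CPM, and was the only one of the 5 with rd10-TMB over 2-fold above rd10-vehicle (log2 ratio 1.73). A list of clock genes also differed between the libraries. Its median log2 ratios were -0.82 for rd10-vehicle over WT, -0.18 for rd10-TMB over WT and 0.44 for rd10-TMB over rd10-vehicle. The medians of all 10725 genes were -0.05, -0.06 and -0.02. Slco1c1, a thyroid hormone transporter gene, had 37.0, 2.66 and 4.47 CPM, so it was as low as Prss56 in rd10-vehicle and stayed low in rd10-TMB. Ccl27a (47.9, 9.91 and 11.1 CPM), the long noncoding RNA gene Snhg11 (21.1, 4.64 and 4.77) and Ube2ql1 (18.1, 4.28 and 5.78) were also low in both rd10 libraries. All these ratios share the WT library.

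**Figure D3:**
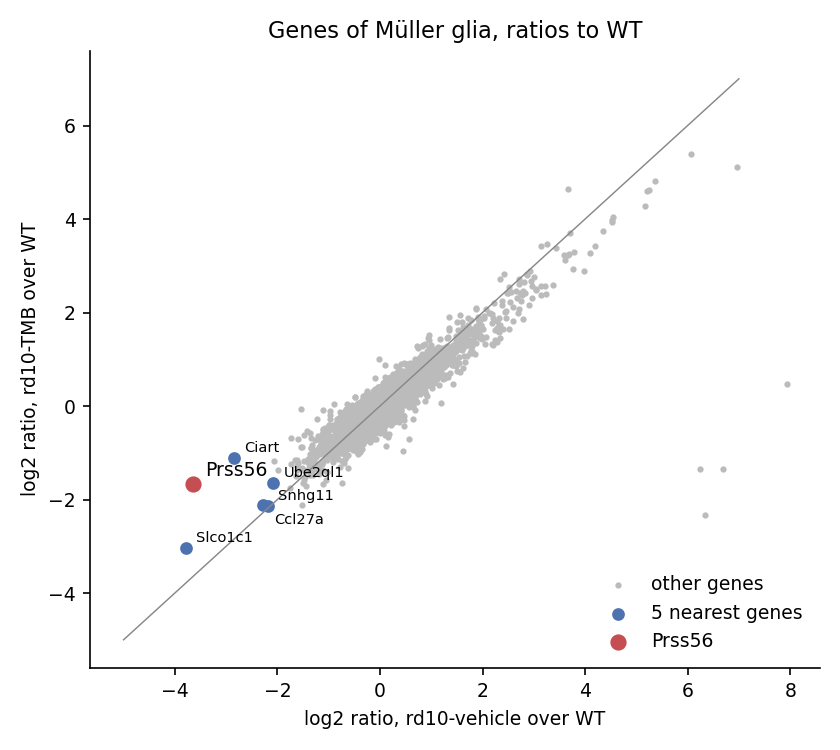
Log2 ratio to WT in MG of rd10-vehicle (x axis) and rd10-TMB (y axis) for genes with at least 200 MG UMIs, sex-linked genes left out; the line marks equal ratios. Prss56 (red) lies at -3.65 and -1.68, above the line, with Ciart the nearest of the 5 labelled genes (blue).

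Across 35 sums of cluster and library with at least 50 cells, the genes with a level most like Prss56 were Gm15934 (Pearson r 0.96), Esrp1 (0.96), Gsx1 (0.95), Aldh1a7 (0.94) and Tph2 (0.93). The correlations are descriptions over 13331 genes, and the points share libraries and depth. Outside MG, Prss56 had 1 UMI in each of 2 sums and 0 in the rest. The coefficients thus mostly set the MG sums against the other sums, and say little about the differences between libraries. Clusters with under 50 cells in a library were not among these sums. Esrp1, a splicing factor gene, had 111 CPM in cluster 20 against 4.85 CPM in MG, and Aldh1a7 had 65.1 CPM in cluster 17 against 10.8 CPM in MG. In MG of WT, rd10-vehicle and rd10-TMB, the homeobox gene Gsx1 stood at 13.6, 4.10 and 8.52 CPM, the aldehyde dehydrogenase gene Aldh1a7 at 20.2, 7.97 and 12.8 CPM and Tph2, a serotonin synthesis gene, at 18.4, 15.8 and 16.7 CPM. The point values of these 3 genes, and of Gm15934 at 9.04, 4.28 and 5.84 CPM, had the order of Prss56 with smaller differences. Esrp1 had 11.1, 4.32 and 4.29 CPM. Counting intervals were not computed for these genes, and the values of Tph2 lay close together, so no order is read from them.

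To see which other transcripts marked the Prss56-positive MG, they were compared with Prss56-negative MG within each library. The split that had been set first, on cells thinned to 2000 UMIs, had 22, 6 and 22 positive cells and could not serve. Of 3322 genes, 223 (6.71%) came out at least 1.5-fold higher in all 3 libraries and 0 (0%) lower, but adding 1 UMI to such small sums raised the median gene by 0.21, 0.71 and 0.20 (log2). Of the 223 genes, 79 had no UMI at all in the positive rd10-vehicle cells, led by Rcan1 and Fam107a. No direction is read from it. A second split was chosen after the data had been seen. It kept all UMIs (51, 28 and 75 positive cells), added 1 UMI to the positive cells and the same CPM to the negative ones, and took the 7584 genes with at least 5 UMIs expected in the positive cells of each library. The median gene then lay at -0.02, 0.01 and 0.00, and 16 genes (0.211%) were at least 1.5-fold higher and 9 (0.119%) at least 1.5-fold lower in all 3 libraries. Only 1 of the 16, Necab2, was among the 223. Positive cells were deeper, with medians of 7158 against 6238 UMIs (WT), 10753 against 8575 (rd10-vehicle) and 10321 against 9411 (rd10-TMB).

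Necab2, a calcium-binding protein gene, was 1 of the 16 higher genes. Over all libraries MG held it at 114 CPM, against 2.29 CPM in the rod cluster. Cluster 9 had 13.7 CPM, the highest among the other clusters of at least 50 cells. In the split, Necab2 stood at 156 CPM in positive and 89.5 CPM in negative MG of WT, with 469 and 101 CPM for rd10-vehicle, and 422 and 107 CPM for rd10-TMB. The log2 ratios were 0.78 (0.37 to 1.22), 2.18 (1.99 to 2.43) and 1.97 (1.81 to 2.13). In cells, 43.1% of the positive and 22.8% of the negative MG had a Necab2 UMI in WT, with 75.0% and 29.8% for rd10-vehicle, and 66.7% and 30.4% for rd10-TMB. Read the other way, 16.8% of Necab2-positive and 7.27% of Necab2-negative MG carried Prss56 in WT, with 2.78% and 0.403% for rd10-vehicle, and 8.94% and 2.10% for rd10-TMB, without overlap of the intervals in any library. Unlike Prss56, Necab2 was no lower in the negative MG of rd10 than of WT. Cells with Necab2 were deeper (median 9756 against 8107 UMIs in rd10-vehicle), and at 2000 UMIs per cell the shares with Prss56 were 8.20% and 3.82%, 0.974% and 0.142%, and 4.41% and 0.887%. There the intervals overlapped in WT and in rd10-vehicle, where each share rested on 3 cells, and stood apart in rd10-TMB.

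Another 5 of the 16 genes are named next, those with counting intervals away from 0 in all 3 libraries, which is a description since the same counts chose the 16. Nr2f2, a nuclear receptor gene, had log2 ratios of 0.87, 0.86 and 0.92, but in rd10-vehicle 17 of its 34 UMIs lay in 1 cell and the ratio was 0.13 without it. Sv2b, a synaptic vesicle protein gene, had 0.84, 1.35 and 1.11, and Rai14, a gene of an actin-associated protein, 0.82, 0.98 and 0.75. Hspb1, a small heat shock protein gene, had 1.55, 2.002 and 2.03, but in WT only 2 of 51 positive cells (3.92%) had it, against 5.22% of the negative cells, and 23 of its 34 UMIs lay in 1 cell. Gfap, with 1.05, 1.12 and 0.60, rested in WT on 12 UMIs of which 11 lay in 1 cell. In the rd10 libraries, Hspb1 was present in 57.1% of positive against 26.02% of negative MG (rd10-vehicle) and in 27 of 75 positive cells against 21.04% of the negative (rd10-TMB). When the positive cell with most UMIs of each gene was left out of each library, only Sv2b and Rai14 of the 16 kept 1.5-fold in all 3, and Necab2 stood at 0.55, 1.79 and 1.86. The other 10 genes were Tenm2, Mir124a-1hg, Ints11, Polr3d, Aipl1, Phlpp2, Otud7b, Stxbp6, Btbd2 and Cfap410, with 9 to 70 UMIs in the positive cells of a library. Of the 16 genes, 9 had a higher CPM in the rod cluster than in MG, among them Aipl1, a phosphodiesterase chaperone gene of photoreceptors, at 1103 against 36.2 CPM. So did 5 of the 9 lower genes below and 47.7% of all 7584 genes compared, so the count is near the background. Some other cluster of at least 50 cells exceeded MG for 15 of the 16, all but Necab2, and for 8 of the 9 lower genes. Gfap had 4696 CPM in cluster 12 against 268 CPM in MG. Hspb1 had 1640 and Nr2f2 575 CPM in cluster 14, against 127 and 46.9 CPM in MG. The share over all genes was not counted for this comparison.

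The 9 lower genes were Itfg1, Zbtb43, Maf, Ccdc65, Pde4d, Vax2, Dhcr7, Asrgl1 and Epb41l4aos. Counting intervals left out 0 in all 3 libraries for 2 of them. Maf, a transcription factor gene, had log2 ratios of -1.03, -1.20 and -0.75, and Asrgl1, an asparaginase gene, -0.72, -0.86 and -0.61. The rest held as few as 1 UMI in the positive cells of a library. Vax2, a transcription factor gene of the ventral retina, had 2, 1 and 8 UMIs there, in log2 ratios of -1.40, -2.001 and -0.65, and its intervals reached 0 in WT and rd10-TMB.

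**Figure D4:**
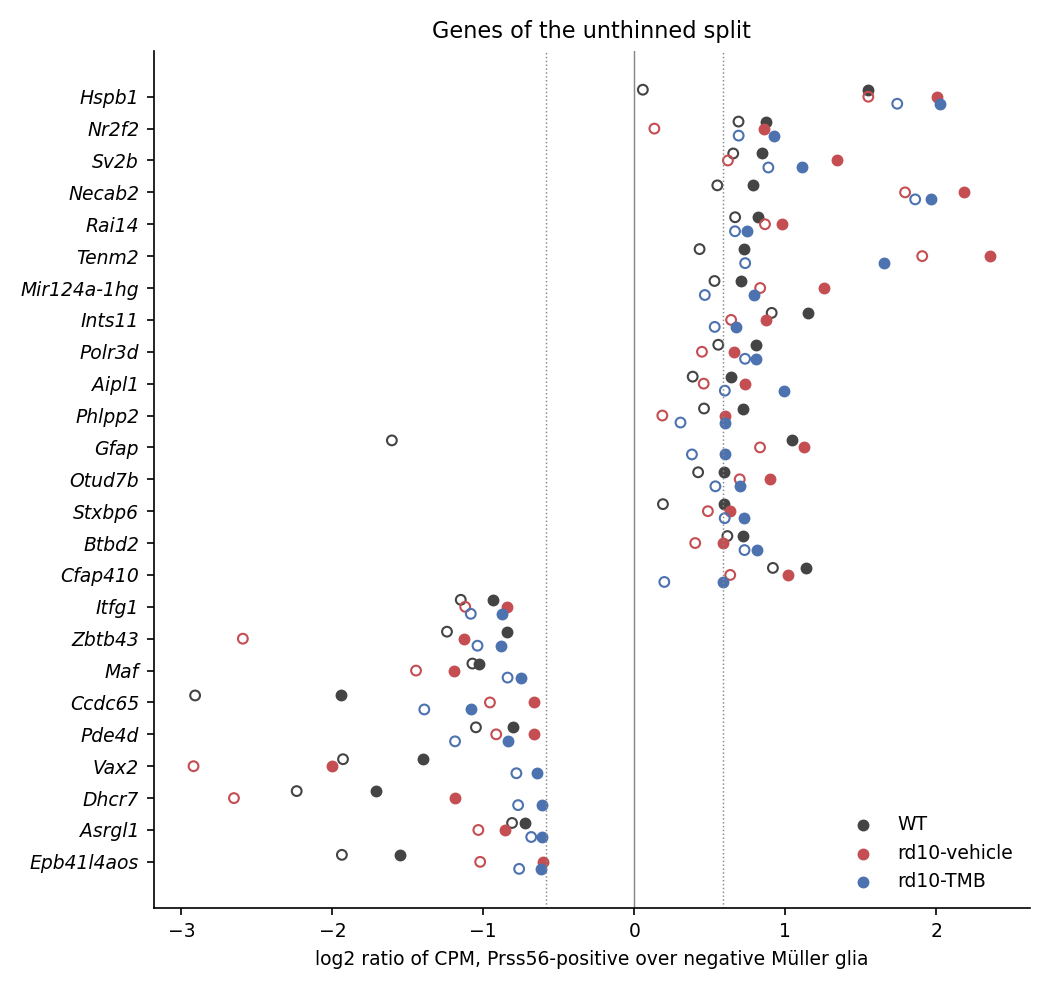
Log2 ratio of CPM in Prss56-positive over Prss56-negative MG for the 16 higher and 9 lower genes of the second split, by library; open markers leave out the positive cell with most UMIs of the gene, and dotted lines mark 1.5-fold. Necab2 and Hspb1 reach about 2 in the rd10 libraries, and most higher genes fall inside the dotted line in at least 1 library once a single cell is left out.

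Gene lists gave the same split a wider view, read by their medians against the medians of all genes near 0. Dorsal retina genes had medians over 5 measured members of 0.26, 0.77 and 0.71, with 0 of the 5 called in all 3 libraries and members on both sides of 0 in WT and rd10-vehicle. Aldh1a1, the retinaldehyde dehydrogenase of the dorsal retina, had log2 ratios of 0.26, 1.12 and 0.94, and the ephrin gene Efnb2 0.44, 1.69 and 1.02. Bambi, a decoy receptor gene of BMP signalling, had 0.59, -0.07 and 0.71, and Tbx2, a dorsal T-box factor gene, -0.38, -0.16 and 0.38. Ventral genes lay at -0.21, -0.27 and -0.19 over 4 members, of which Vax2 was called lower, and in each library 1 of the 4 lay above 0. MG identity genes, 22 members with 0 called, lay at 0.03, -0.38 and -0.14. Glul, the glutamine synthetase of MG, was level in WT (9019 CPM in positive and 9020 in negative cells) and was lower in positive cells of rd10-vehicle (3190 against 6643 CPM) and rd10-TMB (5865 against 7610 CPM). Reactive genes, 24 measured and 1 called (Gfap), lay at 0.01, 0.39 and 0.20. Eye growth genes lay at -0.14, 0.16 and 0.09 over 10 members, protease genes at -0.11, 0.22 and 0.15 over 4, protease inhibitor genes at -0.12, 0.38 and 0.24 over 9, and secretory pathway genes at 0.07, 0.04 and -0.02 over 17, with 0 called in each. Immediate early genes lay at 0.06, 0.38 and 0.14 over 18 members and clock genes at -0.12, -0.26 and 0.02 over 13, again with 0 called. Genes of the peripheral retina (-0.18, 0.17 and 0.05 over 5), Notch and progenitor genes (0.02, -0.21 and -0.01 over 16), Wnt and BMP genes (-0.05, 0.09 and -0.02 over 11), matrix genes (-0.07, -0.01 and 0.06 over 13) and glucocorticoid-responsive genes (-0.07, 0.05 and 0.08 over 9) likewise had 0 called.

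The share of MG with Prss56 was higher among Lcn2-positive than Lcn2-negative cells in both rd10 libraries. In rd10-TMB, 28 of 300 Lcn2-positive MG (9.33%, interval 6.29 to 13.2) and 47 of 1448 Lcn2-negative MG (3.25%, 2.39 to 4.29) had a Prss56 UMI. In rd10-vehicle the shares were 14 of 653 (2.14%, 1.18 to 3.57) and 14 of 1839 (0.761%, 0.417 to 1.27), with intervals that overlapped slightly. At 2000 UMIs per cell, with Lcn2 called anew on the thinned counts, they were 4.49% and 0.991% in rd10-TMB and 0.737% and 0.149% in rd10-vehicle, the latter from 3 cells each. In WT 0 of 9 Lcn2-positive MG had Prss56, which says little. Within Lcn2-negative MG, Prss56 was still lower in both rd10 libraries than in WT, at log2 ratios of -4.02 in rd10-vehicle and -2.52 in rd10-TMB, and rd10-TMB was 1.496 above rd10-vehicle.

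Rod transcripts were more abundant in the Prss56-positive MG of both rd10 libraries. The 11 rod marker genes used, among them Sag and Gnat1 of the phototransduction cascade, summed to 2577 CPM in positive and 1194 CPM in negative MG of rd10-vehicle, to 2143 and 1264 CPM in rd10-TMB and to 681 and 782 CPM in WT. Of the 69 Prss56 UMIs of rd10-vehicle, 53 lay in the 1079 MG whose sum of these genes was above the library median of 3 UMIs (4.72 CPM, 3.53 to 6.17) and 16 in the other 1413 MG (1.46 CPM, 0.834 to 2.37). The same cut gave 43.7 CPM above and 33.6 CPM at or below the median in WT, and 12.7 and 11.8 CPM in rd10-TMB, with overlapping intervals. The share of Prss56-positive cells was 1.85% above and 0.566% at or below the median in rd10-vehicle, 10.6% and 8.68% in WT, and 4.44% and 4.16% in rd10-TMB. At 2000 UMIs per cell, with the median taken anew, 3 of 749 rd10-vehicle MG above it and 3 of 1678 others had Prss56 (0.401% and 0.179%), with overlapping intervals. The direction turned in WT (7 of 206 above, 15 of 300 at or below) and in rd10-TMB (0.805% and 1.62%), also with overlapping intervals. Over the MG at or below the median the log2 ratio was -4.47 for rd10-vehicle over WT, -1.53 for rd10-TMB over WT and 2.94 for rd10-TMB over rd10-vehicle. The part of rod transcripts in the results above was not tested. The rods of cluster 1 had no Prss56 UMI, as given above. When the second split was made only within MG at or below the median (2290 genes, 8 positive cells in rd10-vehicle), 0 genes were higher in all 3 libraries and 5 were lower. Necab2 had too few UMIs to be among those 2290, and its log2 ratios there were 0.31, 1.53 and 1.71. Within Lcn2-negative MG (4041 genes) the 1 higher gene was Necab2, with 1.02, 2.08 and 1.41.

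**Figure D5:**
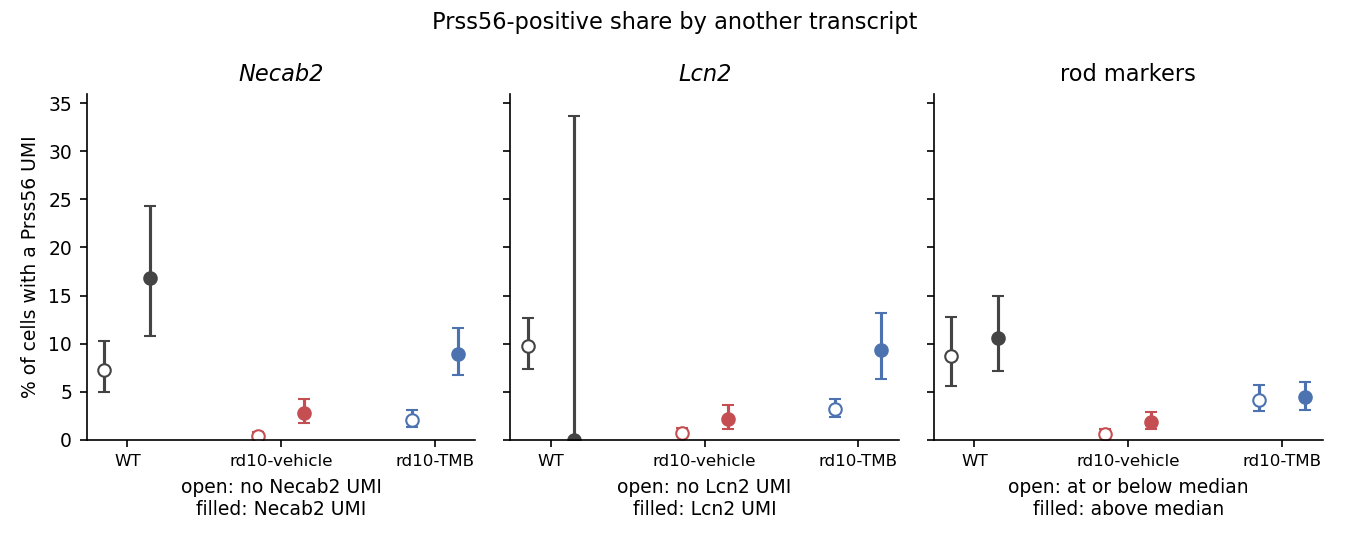
Percent of MG with a Prss56 UMI (all UMIs kept) by the presence of a Necab2 UMI, of an Lcn2 UMI, or of a summed count of the 11 rod markers above the library median, in the 3 libraries; bars are exact 95% binomial intervals. Filled points lie above open ones in each library for Necab2 and in both rd10 libraries for Lcn2; for the rod markers the intervals stand apart in rd10-vehicle (1.14 to 2.85% above the median, 0.245 to 1.11% at or below it) and overlap in the other two; the WT Lcn2 point rests on 9 cells.

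Markers of other cell types in positive and negative MG were as follows. Cone markers, 9 in the matrix, summed to 64.6 against 104, 268 against 215 and 524 against 250 CPM, with WT first, then rd10-vehicle and rd10-TMB. Bipolar markers summed to 159 against 82.8, 149 against 91.0 and 103 against 98.6 CPM, and amacrine markers to 1037 against 1077, 762 against 762 and 797 against 787 CPM. Most of the amacrine sum was Pax6, at 761, 598 and 603 CPM in all MG against 136 CPM in the other cells. Gad1, Gad2, Slc6a9, Slc32a1, Tfap2a and Tfap2b were each at most 8.74 CPM in the MG of any library. Ganglion cell markers, mostly Rbpms and Thy1, summed to 80.8 against 60.7, 129 against 65.9 and 114 against 61.2 CPM. Horizontal cell markers stayed between 2.06 and 18.8 CPM. Endothelial markers, nearly all from Flt1 and Kdr, which the MG libraries held at 610 to 871 CPM while Cldn5, Pecam1, Cdh5 and Ly6c1 stayed below 3 CPM, summed to 1513 against 1515, 1316 against 1493 and 1250 against 1460 CPM, mural markers to 75.4 against 80.0, 94.3 against 86.1 and 101 against 92.2 CPM, and astrocyte markers, mostly Aldoc, Slc1a2 and Gfap, to 1163 against 1231, 1561 against 1502 and 1553 against 1476 CPM. Microglial, pigment epithelial and lens markers were each below 30 CPM in positive and negative cells. The part of these transcripts in the split was not tested.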

How the data were processed

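Droplet scRNA-seq (10x v3) had been run on 3 pooled retina libraries. The authors aligned reads to mm10 with Cell Ranger 6.0.1, removed doublets with Scrublet before deposit, kept cells with at least 500 genes and clustered them in Seurat 3.2.2. What the authors deposited is on a natural log scale, ln(1 + x) with x the UMIs scaled to 10000 in each cell. The deposited cell table gives 2 counts, the total UMIs and the detected genes. UMIs were recovered with the cell totals: 100% of 32620606 entries were whole within 0.001, and the counts summed to the total in 15242 of 15242 cells. Libraries held 18882951 (WT), 37002532 (rd10-vehicle) and 29192530 UMIs (rd10-TMB). No doublet caller was run here, and 25 barcodes occurred in 2 libraries (19 MG, of which 1 had Prss56).

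UMIs were summed over MG (cluster 0) of each library and scaled to CPM. Ratios had a pseudocount of 1 UMI. Levels carry exact Poisson, shares exact Clopper-Pearson and ratios exact conditional intervals at 95%, covering counting error only. A count of 0 is limited by 3 counts. Thinning drew UMIs without replacement. Cells are not replicates, so no p-value was computed. Python 3 scripts were tested on simulated data.

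Prss56, the lists and the comparisons were chosen with earlier results of these data known, and the second split and the genes of the co-occurrence counts (apart from Lcn2, Gfap and Glul) after its values were seen. Named genes were Prss56, the 5 nearest by likeness and by library pattern, the called genes, eye growth genes and the most abundant protease genes, up to 4 members of other lists, and chromosomal neighbours. Rules named 15 higher genes of the first split, of which Rcan1 and Fam107a are given as examples. The alternatives are those of the closing section. RefSeq and GENCODE annotation of GRCm38 gave positions, and RefSeq gave the promoter. Protein sequence was not used here. Some listed genes, and the alternative that used 1 of them, are not reported here, and the split by rod marker genes was added after the data were seen.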

Additional observations from a re-analysis of the deposited data

Results flagged for a closer look

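For the 11 rod marker genes, the median log2 ratio of Prss56-positive over Prss56-negative MG was just below 0 in WT (-0.088, near the -0.022 of all genes) and above 0 in rd10-vehicle (1.04) and rd10-TMB (0.73), and the members went both ways in WT. The share of Hspb1-positive MG that carried Prss56 was 7.41% in WT (2 of 27 cells, against 9.74% of the MG without Hspb1), 2.44% in rd10-vehicle (against 0.654%) and 7.12% in rd10-TMB (against 3.51%). Cells with Hspb1 were deeper, and at 2000 UMIs per cell the shares were 0 of 14 cells in WT (interval up to 23.2%), 1.09% against 0.139% in rd10-vehicle (3 cells each) and 2.19% (3 cells) against 1.24% in rd10-TMB, with overlapping intervals. For Tbx5, a dorsal T-box factor gene, it was 9.52% in WT (2 of 21 cells, against 9.63%), 3.03% in rd10-vehicle (against 0.959%) and 6.09% in rd10-TMB (against 4.16%). Cells with Tbx5 were deeper too, and at 2000 UMIs per cell 0 of 3 (WT, up to 70.8%), 0 of 45 (rd10-vehicle, interval up to 7.87%, against 0.252%) and 1 of 23 (rd10-TMB, against 1.28%) had Prss56. None of these differences between libraries was tested.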

How the results depend on the processing

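No paired analysis was possible because each group had 1 library. Over 38 alternatives for the library ratios of Prss56, 0 changed sign and 12 left the counting interval. For rd10-vehicle over WT these were -4.82 at 2000 UMIs per cell, -4.47 without cells above the rod marker median, -4.20 against WT cells that had Xist but no Y-linked UMI and -4.17 without the 5 cells with most Prss56. For rd10-TMB over WT they were -2.03 without the 5% of cells with most UMIs, -2.37 thinned, -2.52 without Lcn2 cells and -2.23 against the Xist cells. For rd10-TMB over rd10-vehicle they were 2.45 thinned, 1.496 without Lcn2 cells, 2.94 without cells above the rod marker median and 2.45 without the 5 cells. The mean over cells put rd10-TMB at 10.5 CPM.

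Shares of positive cells moved with depth, from 1.71% (1000 UMIs, 3.04% in another draw) to 8.13% (4000 UMIs) and 9.62% (unthinned) in WT, from 0.283% to 0.602% and 1.12% in rd10-vehicle and from 0.926% to 2.21% and 4.29% in rd10-TMB. At 2000 UMIs the rd10-TMB share of 1.32% was 0.655% and the rd10-vehicle share of 0.247% was 0.112% without the cells that had Lcn2 before thinning. Another draw at 2000 UMIs gave 5.93%, 0.412% and 1.44%.

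Counts of the first split did not hold. In place of 223 higher and 0 lower genes it gave 70 and 6 at 4000 UMIs, 200 and 4 at 1000 UMIs, 33 higher at 2-fold, 1274 higher at a minimum of 20 UMIs, 821 higher for cells with at least 2 Prss56 UMIs, 2848 and 29 in both rd10 libraries only, 111 and 2 in another draw, 457 and 1 without Lcn2 cells, and 38 and 85 at a pseudocount of 0.1 UMI. Settings added after the data were seen gave 0 higher for the thinned cells with a scaled prior, 29 and 5 for all UMIs with an equal pseudocount and at least 50 UMIs, 1 and 2 at 200 UMIs, and 233 and 22 for cells with at least 3 Prss56 UMIs. The second split gave 16 and 9, and it gave 2 and 75 without the top positive cell of each gene (a step that lowers ratios by construction), 0 and 5 without cells above the rod marker median, 12 and 11 without the 5 cells with most Prss56, 150 and 74 in both rd10 libraries only, and 1 and 4 without Lcn2 cells. Necab2 was the 1 higher gene at 200 UMIs and without Lcn2 cells. The cause of these moves was not tested, apart from the pseudocount described above and the construction just named. The second split rested on 28 positive cells in rd10-vehicle.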
